A study of Homo sapiens with 2 samples.

Results

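The genes described here are 35 human aminoacyl-tRNA synthetases, the enzymes that load amino acids onto their tRNAs, of which 19 work in the cytosol and 16 in mitochondria. Members were taken by gene name, and the rule used no signal, but the family was proposed with earlier results of these data known. A probe set, the group of array oligos that reads a transcript, was used where its only listed gene was a member. By that rule 32 of the 35 genes had a value, 17 cytosolic and 15 mitochondrial, out of 19775 genes with such a probe set in the series. All 32 had a signal of 100 or more on at least 1 array, the limit for calling a gene measured, which 12754 genes of the series reached. MARS1, QARS1 and TARS2, the enzymes for methionine and glutamine in the cytosol and for threonine in mitochondria, had only probe sets that also list a microRNA gene, and they entered no count.

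RNA came from hTERT-RPE1, a human cell line from retinal pigment epithelium that was immortalised by telomerase. Cells of 1 group received a control oligo and those of the other a miR-129-3p oligo, in both cases with a lipid reagent, and RNA was taken after 72 h. Medium held 10% serum and hygromycin B in both groups. The study asks, by its title, how miR-129-3p acts on cilia through the centriole protein CP110 and actin. Each group is 1 sample of RNA from many cells, read by 1 Affymetrix array, so there is no replicate error, no test and no p-value, and every difference compares these 2 arrays. Fewer cells with a transcript and less of it per cell cannot be told apart. The precision of each value is limited by that number.

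Each aminoacyl-tRNA synthetase recognises an amino acid and its tRNAs and joins the pair at the cost of ATP, and the charged tRNA then delivers the amino acid to the ribosome. Cytosol and mitochondria have separate ribosomes, and for most amino acids separate genes encode the enzymes of each compartment. Symbols ending in 1 belong to the cytosol and those ending in 2 to mitochondria. GARS1 and KARS1, for glycine and lysine, serve both compartments from a single gene and are counted as cytosolic. FARSA and FARSB are the subunits of the cytosolic phenylalanine enzyme, and EPRS1 joins the glutamate and proline enzymes in a single chain. Several cytosolic enzymes are known targets of ATF4, the transcription factor of the amino acid and stress response, and WARS1, the tryptophan enzyme, is known as an interferon-induced gene.

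The labels name the oligo miR-129-3p, of which the human genome encodes 2 forms, and the labels do not say which was used. Both are shown because they define the treatment. Capitals mark the seed, bases 2 to 8, which is the same in both, and the only difference is U20C, with positions counted from 1 at the 5′ end and the miR-129-1-3p base first. Sequences are from RefSeq on GRCh38.p14, at chr7:128207920-128207941 and chr11:43581450-43581471, both on the plus strand. The arrays do not read mature miRNAs, so the level of the oligo was not measured here.
hsa-miR-129-1-3p: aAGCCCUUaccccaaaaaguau
hsa-miR-129-2-3p: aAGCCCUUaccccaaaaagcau

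Signals were set on a scale of log2(signal + 16), which understates differences of dim genes, and a difference is miR-129-3p minus control. Over 54613 probe sets the median signal was 96.5 in control and 98.0 with miR-129-3p. Where a gene of the series had several probe sets at 100 or more, the pooled SD of their differences was 0.37 (6179 genes), which does not include any spread between cultures. Of 9 markers of retinal pigment epithelium, 5 were measured, MITF, OTX2, KRT8, KRT18 and PMEL. RPE65, BEST1, RLBP1 and TYRP1, which mark the mature tissue, were under 100 on both arrays. MITF, the pigment cell transcription factor, differed by -1.26, KRT18 by -0.96 and PMEL by 0.92, and the part of cell state in the differences below was not tested. Of 7 blood cell markers with a value, only HBB was measured, at 162 on the control array and 149 on the miR-129-3p array.

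Among the synthetases, WARS1 was the gene with the largest difference, with a signal more than 2-fold higher on the miR-129-3p array, and its mitochondrial counterpart WARS2 had the largest difference the other way. In all, 5 of the 32 genes (15.6%) passed 1.5-fold upward with miR-129-3p and 2 (6.25%) passed it downward, while 25 lay inside those limits. Over all 12754 measured genes 17.3% passed 1.5-fold upward and 10.8% downward. The synthetases as a whole were therefore near the share of all genes on the higher side. On the lower side their share was smaller, but it rests on 2 genes, too few to set the family apart. The median difference of the 32 genes was -0.05, against 0.03 for all measured genes, and 20 of the 32 were below 0.

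**Figure D1:**
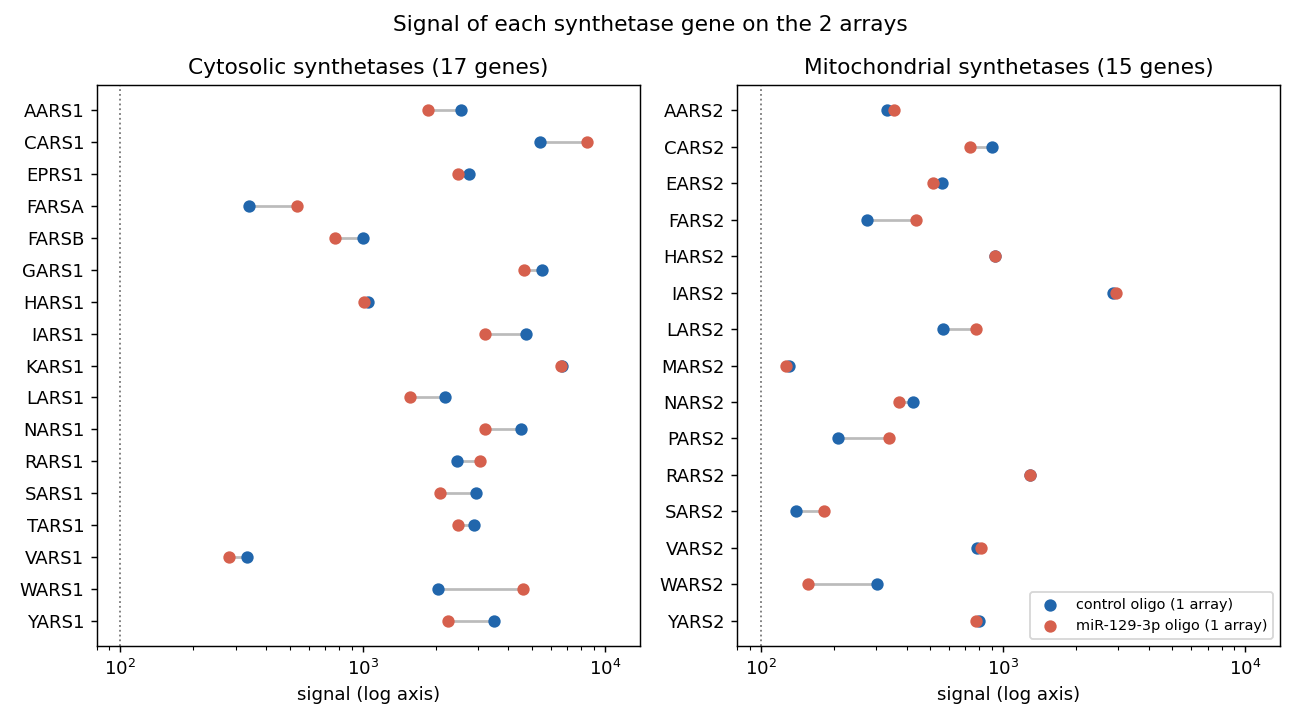
Signal (log axis) of 17 cytosolic and 15 mitochondrial synthetase genes on the control array (blue) and the miR-129-3p array (red), 1 array each, with the limit of 100 dotted. A reader should see the wide gap of WARS1 toward the miR-129-3p array and of WARS2 toward control, and coinciding points for KARS1, HARS2 and RARS2.

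The cytosolic enzymes were more often below 0 than all genes, by small amounts. Of 17 measured, 13 were below 0 (76.5%, against 47.1% of all measured genes), with a median of -0.24 and a range from -0.63 to 1.16. At the 1.5-fold limit 3 were higher (17.6%), WARS1, CARS1 and FARSA, and 1 was lower (5.88%), YARS1. Among all measured genes 17.3% were higher and 10.8% lower, and so few cytosolic genes show no contrast with those shares. The median moved to -0.05 when probe sets whose names end in _x_at or _s_at, which can match several transcripts, were left out. That setting held 11 cytosolic genes. EPRS1, FARSB, GARS1, IARS1, LARS1 and VARS1, all below 0, dropped out, since none had another probe set bright enough to be measured. Among the genes that stayed only YARS1 changed, from -0.63 to -0.46. The median thus moved because genes left the count, and not because values changed.

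WARS1, the cytosolic tryptophan enzyme, had a signal of 2043 on the control array and 4587 on the miR-129-3p array on its brightest probe set, which is a log2 difference of 1.16 or 2.24-fold on this scale. Its other probe set read 1188 and 2861, a difference of 1.26. Both probe sets were thus more than 2-fold higher with miR-129-3p, and 1 of the 32 synthetases passed that limit upward and 0 downward, beside 7.83% and 4.56% of all measured genes. Of all measured genes, 6.19% had a higher difference than WARS1, so it lay in the upper part of the series without being among its extremes.

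CARS1, which charges cysteine, read 5400 on the control array and 8441 on the miR-129-3p array on its brightest probe set, a difference of 0.64. Its other probe sets at 100 or more read 1292 and 2177, and 407 and 693, and each differed by 0.75. All 3 were past the 1.5-fold limit in the same direction. FARSA, the alpha subunit of the phenylalanine enzyme, read 341 and 533 on its brightest probe set, a difference of 0.62, and its other probe set differed by 0.51, just inside the limit. FARSB, the beta subunit of that enzyme, went the other way, from 1001 to 766, a difference of -0.38, and its other probe set at 100 or more differed by -0.13. A dim FARSB probe set, at 24.1 and 32.0, differed by 0.26, and with the mean of all 3 the gene differed by -0.08. The brightest probe sets of these subunits thus lay on opposite sides of 0, with FARSB inside the limit.

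YARS1, the cytosolic tyrosine enzyme, was the single cytosolic gene past the limit downward, with 3488 on the control array and 2250 on the miR-129-3p array on its brightest probe set, a difference of -0.63. Its other probe set read 254 and 180 and differed by -0.46, inside the limit. Just inside the limit on the gene value were IARS1 and SARS1. IARS1, for isoleucine, read 4712 and 3210, a difference of -0.55 on its single probe set. SARS1, for serine, read 2933 and 2080, a difference of -0.49, and its dimmer probe set read 198 and 120.5, a difference of -0.65 that was past the limit. NARS1 for asparagine (-0.49), LARS1 for leucine (-0.48) and AARS1 for alanine (-0.44) followed closely. Alternatives ended some of these calls: FARSA came inside the limit with quantile normalization (0.54) and 3 other alternatives (0.56 to 0.57), CARS1 with the mean of all its probe sets (0.56), and YARS1 with that mean (-0.55) and without its _s_at probe set (-0.46). The 4 probe sets of LARS1 all lay below 0, from -0.48 to -0.20.

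GARS1 and KARS1, which serve both compartments, lay inside the 1.5-fold limit. KARS1, for lysine, read 6646 on the control array and 6612 on the miR-129-3p array, a difference of -0.01, and its other probe set differed by 0.04. GARS1, for glycine, read 5497 and 4624, a difference of -0.25, near the cytosolic median of -0.24. The remaining cytosolic genes were VARS1 for valine (-0.24), TARS1 for threonine (-0.22), EPRS1 (-0.16 on the probe set used, and -0.19 and -0.23 on its others), HARS1 for histidine (-0.05) and RARS1 for arginine (0.32). RARS1 was the only one of these with a signal that was higher with miR-129-3p, at 2443 and 3048.

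In the cytosol a group of synthetases sits in the multisynthetase complex, held together by scaffold proteins. Of its 7 enzymes among the members, 5 were measured, EPRS1, IARS1, KARS1, LARS1 and RARS1, and 0 passed the 1.5-fold limit in either direction, with a median of -0.16. The scaffold gene AIMP1 read 1163 on the control array and 1164 on the miR-129-3p array, and it was the only one of 3 scaffold genes with a value here. Of the 12 enzymes outside the complex 3 were higher, WARS1, CARS1 and FARSA, and 1 lower, YARS1, with a median of -0.24. Against 17.3% higher and 10.8% lower among all measured genes, counts over so few genes show no contrast between these groups. By catalytic fold, class I synthetases had 2 of 17 higher and 2 lower (11.8% each), and class II synthetases 3 of 16 higher (18.8%) and 0 lower, again few genes beside those shares. EPRS1 counts in both classes, since it holds an enzyme of each.

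The mitochondrial enzymes lay closer to 0. Their 15 measured genes had a median difference of 0.00 and ranged from -0.88 to 0.66, with 7 below 0 (46.7%). At the 1.5-fold limit 2 were higher (13.3%), PARS2 and FARS2, and 1 lower (6.67%), WARS2. Beside 17.3% higher and 10.8% lower among all measured genes, these counts are too small to show a contrast. Less than 1.1-fold apart on the 2 arrays were 8 of the 15 mitochondrial genes (53.3%), 2 of the 17 cytosolic genes (11.8%) and 24.1% of all measured genes. That narrower limit was chosen after the values were seen.

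WARS2, the mitochondrial tryptophan enzyme, read 303 on the control array and 157 on the miR-129-3p array on its brightest probe set, a difference of -0.88 or 1.84-fold lower. Its other probe set at 100 or more read 278 and 168, a difference of -0.68. Both were past the 1.5-fold limit, and 5.68% of all measured genes had a lower difference than WARS2. With the mean of all its probe sets, of which the dimmest read 20.4 and 23.8, the difference was -0.48 and no longer past the limit.

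PARS2, which charges proline in mitochondria, read 209 on the control array and 340.0 on the miR-129-3p array on its single probe set, a difference of 0.66. FARS2, for phenylalanine, read 276 and 436 on its brightest probe set, a difference of 0.63, and its other probe set at 100 or more differed by 0.49. LARS2, for leucine, read 568 and 777 and differed by 0.44, and by 0.49 on its other probe set. SARS2, for serine, read 140.2 and 182, a difference of 0.34. These 4 genes had higher signals with miR-129-3p, but with quantile normalization of the arrays PARS2 (0.57) and FARS2 (0.54) came inside the 1.5-fold limit. FARS2 also did so with the mean of all its probe sets (0.38), with a constant of 64 (0.56) and with a loess trend subtracted (0.57), and PARS2 with a constant of 64 (0.57).

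The remaining 10 mitochondrial genes differed by -0.30 to 0.09. CARS2 for cysteine was lowest of these, at 906 and 732 on its brightest probe set, and its other probe set at 100 or more differed by -0.05. HARS2 for histidine read 927 and 928, and RARS2 for arginine read 1296 and 1295. IARS2 (0.03), VARS2 (0.06), AARS2 (0.09), YARS2 (-0.05), MARS2 (-0.05), EARS2 (-0.13) and NARS2 (-0.18) charge isoleucine, valine, alanine, tyrosine, methionine, glutamate and asparagine. The dimmest member was MARS2, at 131 on the control array and 127 on the miR-129-3p array, so no member lay just outside the limit of 100.

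**Figure D2:**
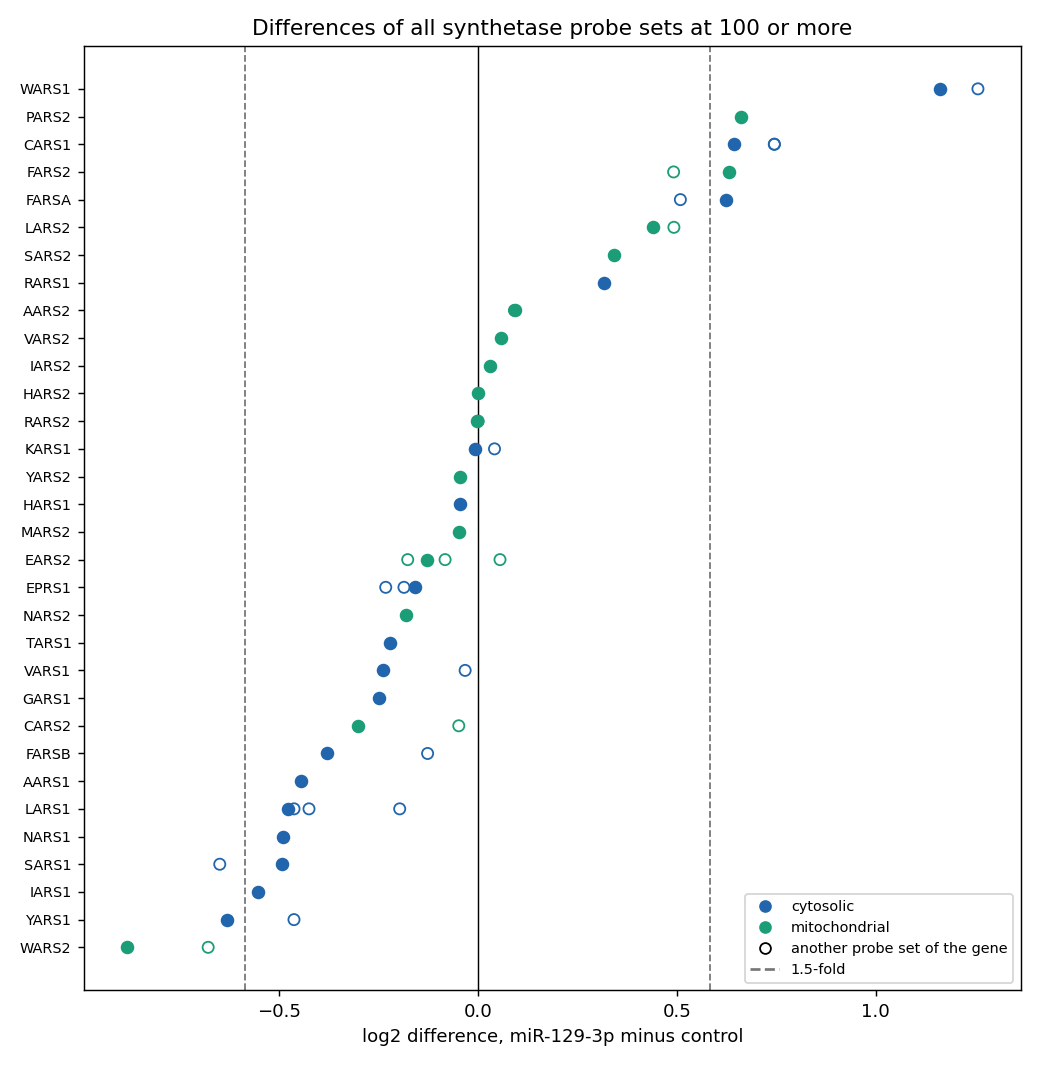
Log2 difference, miR-129-3p minus control, of every synthetase probe set with a signal of 100 or more, ordered by gene value (filled points, blue for cytosolic and green for mitochondrial), with other probe sets of the gene open and the 1.5-fold limits dashed. Both WARS1 probe sets lie past the upper limit and both WARS2 probe sets past the lower, and probe sets of a gene lie within 0.28 of each other.

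Probe sets of the same gene gave similar differences. Members had 67 probe sets with a single gene name, of which 55 had a signal of 100 or more. Of 17 genes with at least 2 such probe sets, 14 had them all on the same side of 0. The widest range within a gene was 0.28, for LARS1. No member had a further probe set at 100 or more that lay past the 1.5-fold limit in the direction opposite to its gene value. The differences of 15 members rest on a single probe set at that signal, among them IARS1, GARS1, AARS1, NARS1 and PARS2.

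For 11 amino acids both the cytosolic and the mitochondrial enzyme were measured, so their differences can be set side by side. In 8 of the 11 pairs the cytosolic enzyme had the lower difference, with a median gap between the enzymes of -0.31. The tryptophan pair was farthest apart, at 1.16 for WARS1 and -0.88 for WARS2, a gap of 2.04. The cysteine pair had the same order, with CARS1 at 0.64 and CARS2 at -0.30, and so had the arginine pair, with RARS1 at 0.32 and RARS2 at 0.00. The leucine pair ran the other way, with LARS1 at -0.48 and LARS2 at 0.44, and the serine pair likewise, with SARS1 at -0.49 and SARS2 at 0.34. The histidine pair was closest, at -0.05 for HARS1 and 0.00 for HARS2.

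**Figure D3:**
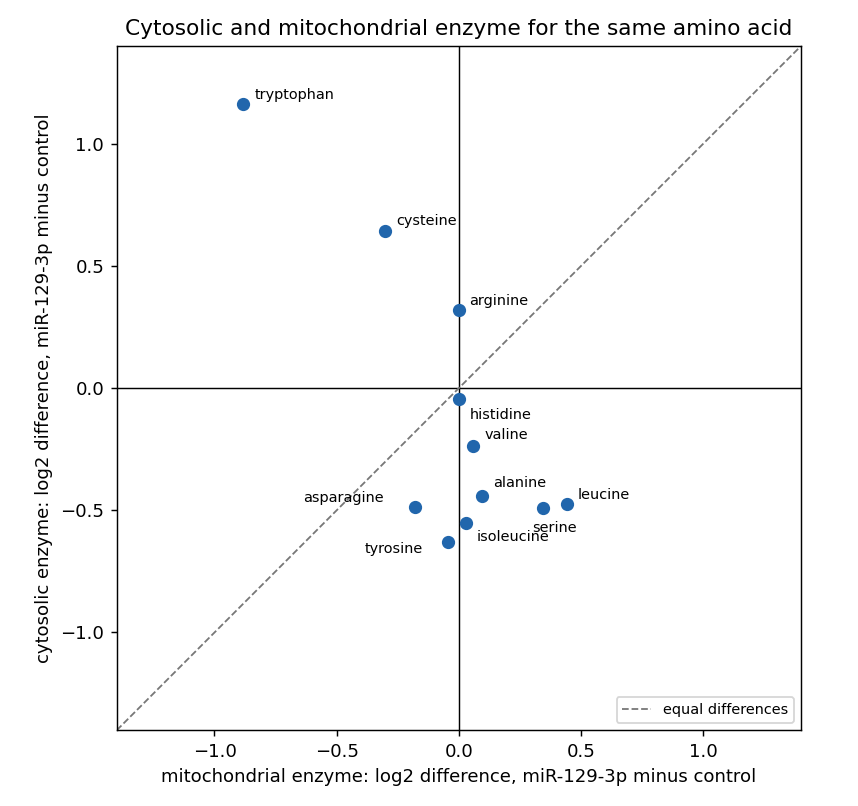
Log2 difference, miR-129-3p minus control, of the cytosolic enzyme (vertical axis) against the mitochondrial enzyme (horizontal axis) for 11 amino acids, with equal differences on the dashed line. The tryptophan pair stands alone at the upper left (1.16 and -0.88), and 8 pairs lie below the line.

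HARS1 and HARS2 lie head to head, and the bases between their transcription starts are shown because both genes are read from this stretch in opposite directions and both had nearly the same signal on the 2 arrays. It spans 84 bases at chr5:140691371-140691454 on GRCh38.p14, printed on the plus strand, with HARS2 starting after its last base and HARS1 before its first base on the minus strand. HARS1 read 1050 on the control array and 1016 on the miR-129-3p array.
HARS1-HARS2: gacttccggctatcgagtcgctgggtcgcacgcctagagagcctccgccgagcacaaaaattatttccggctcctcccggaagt

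RefSeq promoter windows, from 250 bases before to 50 after a start, were at hand for 30 of the 35 members, in 39 windows, and were searched on both strands for 4 motifs. The interferon-stimulated response element core, a pair of GAAA runs with 2 free bases between them, is bound by interferon-activated factors. It was found in 3.57% of all 35116 windows and in 7.69% of the 39 windows of members, for 2 genes, WARS1 and EARS2. Windows of a gene can overlap, so a match can count more than once in these shares. The GAS motif, TTCNNNGAA, is known from promoters of interferon-induced genes. It was found in 7.66% of all windows and in 17.9% of those of members, for 5 genes, WARS1, WARS2, CARS1, PARS2 and TARS1. EARS2, with the interferon element in both its windows, read 562 on the control array and 513 on the miR-129-3p array, a difference of -0.13. Of the 5 genes with a GAS motif, WARS1 (1.16), PARS2 (0.66) and CARS1 (0.64) were higher with miR-129-3p. WARS2 (-0.88) and TARS1 (-0.22) were lower. Members with these motifs thus differed in both directions. A match describes letters and does not show that a factor binds.

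The WARS1 promoter is shown because WARS1 had the largest difference and this window holds both motifs. Of its 2 starts in the table, the one shown has the GAS match at -142 to -134 and the interferon element at -55 to -46 relative to the start, both in capitals, and the other has neither. The sequence covers the 250 bases before the start, chr14:100375348-100375597 on the minus strand of GRCh38.p14.
WARS1: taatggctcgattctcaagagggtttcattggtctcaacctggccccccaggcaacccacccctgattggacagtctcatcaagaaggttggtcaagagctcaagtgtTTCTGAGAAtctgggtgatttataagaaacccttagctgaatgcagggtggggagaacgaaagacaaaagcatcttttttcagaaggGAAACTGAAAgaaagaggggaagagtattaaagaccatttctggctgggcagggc

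Interferon-induced genes were higher on the same array as WARS1. Of 13 fixed for a list, 12 were measured and 11 of these passed 1.5-fold upward (91.7%, against 17.3% of all measured genes). The median difference was 3.26. MX1 and OAS1, antiviral effectors, had control signals under 100, at 26.6 and 21.8, and read 7544 and 6689 with miR-129-3p. Set against 100 in place of control they were at least 75.4-fold and at least 66.9-fold higher. With all signals under 100 set to 100, a setting added after the data were seen, 11 of the 12 still passed the limit and the median was 3.29. IRF1, a transcription factor induced by interferon, read 688 and 2248, a difference of 1.69. IDO1, which breaks down tryptophan and is induced mainly by interferon gamma, was lowest in the list, at 101 and 116, and GBP1, a guanylate-binding protein, was next at 0.71. WARS1 differed by less than the median of this list. The part of interferon signalling in the WARS1 difference was not tested.

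The C/EBP-ATF response element, TGATGNAA, to which ATF4 binds with C/EBP partners, was found in 3.62% of all windows and in 8 of 39 windows of members (20.5%), each of a different gene. These were AARS1, CARS1, GARS1, IARS1, MARS1, NARS1, TARS1 and YARS2. Of the 7 measured, 6 were below 0, with a median of -0.25 and a range from -0.55 for IARS1 to 0.64 for CARS1. The 20 measured members with a window but no match had a median of 0.00, with 11 below 0. AARS2, LARS1, VARS1, VARS2 and YARS1 had no window, so whether they hold the element was not read. Among cytosolic genes alone, the median was -0.35 for 6 with the element and -0.03 for 8 without. The latter leaves out LARS1 (-0.48), VARS1 (-0.24) and YARS1 (-0.63), and with these 3 counted as lacking the element it was -0.16 over 11 genes. CARS1 carried the element across its start, from -2 to 6, and had a higher signal with miR-129-3p. The part of ATF4 in the differences of these genes was not tested. The E-box CACGTG is a site of MYC and related factors. It was found in 7.26% of all windows and in 12.8% of those of members, for 4 genes, CARS2, EARS2, IARS1 and MARS2.

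Of the genes with the element before the start, the 3 cytosolic ones are shown with 60 bases each, since all 3 had lower signals with miR-129-3p. Capitals mark the element, which reads here from the opposite strand. The AARS1 stretch is chr16:70289657-70289716 on the minus strand, the GARS1 stretch chr7:30594818-30594877 on the plus strand and the IARS1 stretch chr9:92293698-92293757 on the minus strand, all on GRCh38.p14.
AARS1: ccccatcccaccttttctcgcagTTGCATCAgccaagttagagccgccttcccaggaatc
GARS1: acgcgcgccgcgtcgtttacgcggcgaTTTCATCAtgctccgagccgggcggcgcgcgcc
IARS1: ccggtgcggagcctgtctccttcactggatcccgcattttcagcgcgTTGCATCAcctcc

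ATF4 itself had similar signals on both arrays, 6621 on the control array and 7247 on the miR-129-3p array, a difference of 0.13. Among ATF4 and 20 of its known targets that are not synthetases, fixed as a list, all 21 were measured, with a median of -0.17. Past 1.5-fold downward were 7 (33.3%, against 10.8% of all measured genes) and upward 3 (14.3%, against 17.3%). Of the 7, CHAC1 read 153.9 on the control array and 56.89 with miR-129-3p, so it was measured on the control array only. With the lower signal raised to the limit for calling a gene measured, it was at least 1.54-fold lower and still past 1.5-fold. NUPR1, a stress-induced chromatin protein, read 1550 and 220, a difference of -2.73, and PSAT1, an enzyme of serine synthesis, read 2698 and 453, a difference of -2.53. ASNS, which makes asparagine, differed by -2.06. At the other end, DDIT3, the stress factor CHOP, differed by 1.30 and SLC7A11, the cystine importer, by 0.81. The synthetases, from -0.88 to 1.16, lay within the range of this list, though WARS1 at 1.16 differed by more than SLC7A11. NARS1, which charges the asparagine that ASNS makes, differed by -0.49.

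Kinases that act on the initiation factor eIF2alpha, and the genes around them, govern ATF4 translation. Of 8 measured, 1 was at least 1.5-fold higher (12.5%) and 0 lower, with a median of 0.15. Over all measured genes the shares were 17.3% higher and 10.8% lower. EIF2AK2, the kinase PKR that senses double-stranded RNA, read 1253 and 4325, a difference of 1.77. EIF2AK4, the kinase GCN2 that senses uncharged tRNA, read 1367 and 1553, a difference of 0.18, and EIF2AK3, the kinase PERK, differed by -0.41.

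Genes that act before and after the synthetases had group medians from -0.25 to 0.19. Their counts past 1.5-fold cover few genes each, beside 17.3% higher and 10.8% lower among all measured genes. RNA polymerase III and its factors, which transcribe tRNA genes, had 2 of 18 measured genes higher and 0 lower (median 0.10), POLR3G at 1.08 and POLR3A at 0.94. BRF1, a polymerase III initiation factor, was lowest at -0.30. Genes of tRNA maturation and export had 0 of 12 higher and 1 lower (median 0.19), TSEN15 of the splicing endonuclease at -0.61, and TSEN54 of the same complex stood highest at 0.55. Cytosolic elongation factors had 0 of 4 higher and 1 lower (median -0.25), EEF1A2, which read 148 and 80.3 and so was measured on the control array only. With 100 in place of the lower signal it was at least 1.48-fold lower, inside the limit. EEF1A1, which brings charged tRNA to the ribosome, differed by -0.23. All 4 measured cytosolic elongation factors were below 0, with a median near that of the cytosolic synthetases (-0.24). Mitochondrial translation factors had 1 of 8 higher and 0 lower (median 0.12), the release factor gene MTRF1, which read 148 and 283.

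Enzymes that complete or proofread charging went both ways. SEPSECS, which forms selenocysteine on its tRNA, read 146 and 338, a difference of 1.13. DTD1, which removes D-amino acids from tRNA, read 2879 and 1776, a difference of -0.69. The other 3 of the 5 measured genes of that list lay between -0.25 and 0.14, with TARS3, a further threonine enzyme, at 0.14. In mitochondria, glutamine tRNA is first charged with glutamate by EARS2 and then amidated by a complex of QRSL1, GATB and GATC, and MTFMT formylates the initiator methionine. Of these 4 partner genes 0 passed the 1.5-fold limit, with QRSL1 at 0.40, MTFMT at 0.22, GATB at 0.00 and GATC at -0.11. So few genes show no contrast with all measured genes, of which 17.3% were higher and 10.8% lower. EARS2 and its partners thus all lay inside the limit.

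**Figure D4:**
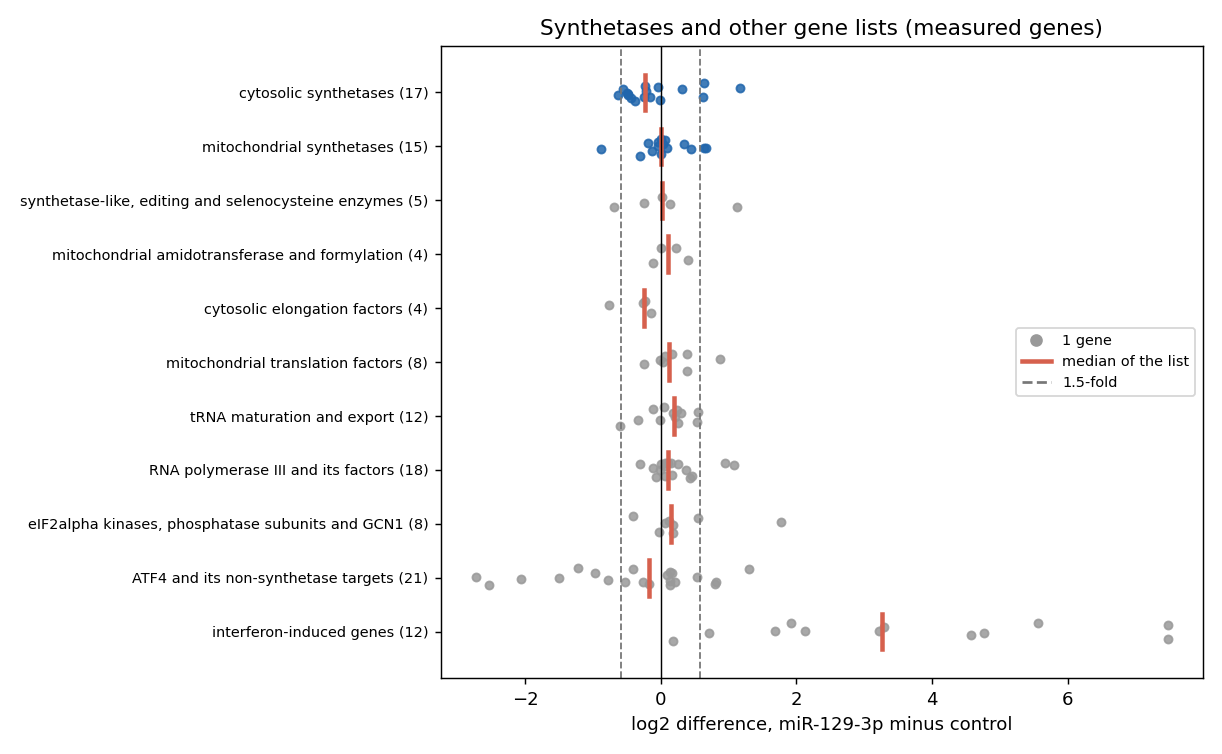
Log2 difference, miR-129-3p minus control, of each measured gene (points) in the synthetase lists (blue) and 9 lists around them (grey), with the list median in red and the 1.5-fold limits dashed. Both synthetase lists lie mostly inside the limits, with medians of -0.24 and 0.00, while the ATF4 list spreads from -2.73 to 1.30 and the interferon list has a median of 3.26. Its rightmost points, MX1 and OAS1, rest on control signals under 100.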

How the data were processed

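Total RNA (100 ng) was labelled with biotin and hybridised, 1 array a group. The authors deposited 1 intensity per probe set and array on a linear scale. MAS5 and RMA both appear in the submitters' processing notes, and which of them made these values, and how low signals were treated, is not given in the sources used here. Of 54613 probe sets 41091 had 1 gene name in the platform annotation, 1801 several and 11721 none. Names were updated by gene ID through the GRCh38.p14 gene table, which matched 41037. A gene's value came from the probe set that was brightest by mean log2(signal + 16). All members were named. Full values were given for members past 1.5-fold, the 2 nearest inside that limit and GARS1 and KARS1, and up to 2 genes at each end of the other lists. Members and lists were chosen with earlier results of these data known. Code was tested on simulated data. Alternatives were 3 scalings, constants of 1 and 64, no filter, a mean filter of 200, other probe set rules, a 2-fold limit and other memberships. Tools were pandas 2.3.3 and numpy 2.4.6 under Python 3.11.15, with statsmodels 0.14.6 for the trend and matplotlib 3.10.9 for plots.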

Additional observations from a re-analysis of the deposited data

Results flagged for a closer look

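A signal outside the values used was higher on the miR-129-3p array than in control. The probe set that the annotation lists with both TARS2 and MIR6878 read 290 on the control array and 443 on the miR-129-3p array, which is 0.59 on the log2 scale and at the 1.5-fold limit. Of 5 probe sets that list a synthetase together with a microRNA gene it was the only one that far up. Over all measured genes, each read by 1 probe set, 17.3% passed 1.5-fold upward. The 5 probe sets here list only 3 synthetases, so their count is too small to set against that share. The 3 listed with MARS1 and MIR6758 differed by -0.39 to -0.30, and the one listed with QARS1 and MIR6890 by -0.42, from 4266 to 3192. Which of the listed genes these probe sets read was not tested.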

How the results depend on the processing

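No result changed direction among the genes past 1.5-fold in any of the alternatives that could give a value. Of 82 repeats of the 7 counts and medians, 70 stayed within 1.5 times the first count or within the probe set SD of 0.37 of the first median. That SD is larger than the cytosolic median (-0.24) and the cytosolic minus mitochondrial median (-0.24). A fall of either to 0 would thus still count as unchanged, and for medians the ranges below say more. The mitochondrial genes at least 1.5-fold higher, 2 at first, numbered 0 with quantile normalization, 1 with a loess trend subtracted, 0 with a constant of 64 and 1 with the mean of all probe sets. With that mean the cytosolic genes higher numbered 1, the cytosolic lower 0 and the mitochondrial lower 0. Without _x_at and _s_at probe sets the cytosolic genes lower numbered 0. At a 2-fold limit the counts were 1 cytosolic higher, 0 cytosolic lower, 0 mitochondrial higher and 0 mitochondrial lower. The cytosolic median ranged from -0.27 to -0.05 and the mitochondrial from -0.07 to 0.04, and the cytosolic minus the mitochondrial median from -0.26 to -0.05. WARS1 ranged from 1.13 to 1.21. Of 279 repeats of single members, 14 brought a gene inside the 1.5-fold limit, but most of the 279 belong to genes already inside it. Of 9 alternatives each, WARS1 stayed past the limit in 9, CARS1 and WARS2 in 8, PARS2 and YARS1 in 7, and FARSA and FARS2 in 5. Leaving out FARSA and FARSB and counting the probe sets with several names were chosen after the data were seen. No paired analysis was possible because each group held 1 array. Signal over background limits the dim members such as MARS2 and SARS2.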
